A study of Caenorhabditis elegans with 6 samples.

Results

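The DNA repair genes of Caenorhabditis elegans were followed in whole worms exposed to diquat, a bipyridinium herbicide that cycles electrons to oxygen inside cells. They were taken as every gene whose Gene Ontology process annotation in the authors' deposited table holds the exact term for DNA repair, without the replication licensing and origin genes, the histone genes and a few meiosis and checkpoint genes. This gave 126 genes of 20473 in the table. The term itself covered 143 genes, and the 17 left out were 16 histone genes and chk-2, a checkpoint kinase gene. The study had 2 groups of 3 libraries of poly(A)-selected RNA. Wild-type N2 worms were kept for 72 h at 20 °C with 0 µg/L diquat (control) or with 100 µg/L (diquat), added as the dibromide monohydrate. No allele or further agent was named for either group, and the labels do not state the worms' stage at sampling. The libraries are called control 1 to 3 and diquat 1 to 3 after the labels. Nothing in the labels says that they came from separate cultures, so a p-value here covers the variation among these 3 libraries a group, and that variation could be technical.

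DNA repair is a set of separate routes that each handle one kind of lesion. Damaged or lost bases, which oxidants produce, are cut out by glycosylases and endonucleases in base excision repair, and bulky or helix-distorting lesions are removed as a short strand in nucleotide excision repair. Breaks through both strands are rejoined by end joining or copied from a sister or homologue in homologous recombination, and lesions left at a fork are bypassed by translesion polymerases. In an adult worm most dividing cells, and much of the repair machinery's RNA, lie in the germline.

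Of the 126 genes, 111 had enough reads to be tested. The other 15 comprised 5 with a count of 0 in every library and 10 with at most 15 counts in any library, and 9 of the 15 were helicase genes for which no repair route was assigned. Per length, the tested genes had a median of 14.3 FPKM (the authors' fragment count scaled for transcript length and library size), against 9.23 FPKM for all 13252 genes tested. The lowest was dot-1.5 at 0.542 FPKM, and the highest was rps-3, a ribosomal protein gene that carries the annotation, at 2565 FPKM. Among the genes known chiefly for repair or replication, rpa-2, a subunit of the single-strand binding protein RPA, stood at 186 FPKM.

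The libraries held between 23390547 and 24593469 counts. Markers of germline, sperm, oocytes, yolk, intestine, muscle and neurons were all present in the whole-worm RNA, with none at 0. The 12 sperm markers summed to between 99.1 and 112 CPM (counts scaled to a common library size, with TMM factors) in control and to between 34.7 and 54.9 CPM in diquat, and 10 of the 12 fell by edgeR's test. The 11 germline markers, one of which (rec-8) is itself among the repair genes, summed to between 2414 and 2685 CPM in control and to between 2148 and 2901 CPM in diquat, and none passed the test. In RNA from whole worms, fewer cells of a type and less RNA per cell cannot be told apart.

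No DNA repair gene passed the test between diquat and control when the fit held the group alone. In edgeR's quasi-likelihood fit, with p-values adjusted by Benjamini-Hochberg over all 13252 genes, 0 of 111 were called higher (0.00% of all tested genes were) and 0 were called lower (0.913% were). At an unadjusted p under 0.05 there was 1 gene, ekl-4, which was higher (0.90%, beside 1.54% of all tested genes higher at that threshold). The lowest adjusted p of the group was 0.782. DESeq2 and limma-voom also called 0. At an unadjusted p under 0.05 DESeq2 had 3 of 121 genes higher (2.48%, beside 1.26% of all genes in that fit). Limma-voom had 2 higher (1.80%, beside 1.78%), and neither had any lower. DESeq2 gave 6 of the genes no adjusted p. The authors' deposited table listed 0 of the 126 genes at an FDR under 0.05, the lowest being 0.998.

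The estimates lay on one side of 0 more often than those of other genes. The median log2 fold change over the 111 genes was 0.17, a 1.12-fold higher level in diquat, beside 0.01 for all genes tested. It was above 0 in 91 of 111 genes (82.0%), against 52.7% of all genes. The changes were small: 109 of the 111 estimates were within 0.5 of 0 on the log2 scale. The median half-width of the approximate 95% interval for a single gene was 0.34, so that a shift of the size of the median was not detectable gene by gene in that fit. Scaled levels summed over the 126 genes were 6516, 6670 and 6925 CPM in control 1, 2 and 3 and 7060, 6981 and 7032 CPM in diquat 1, 2 and 3, with no overlap. Without rps-3 they were 4322, 4427 and 4994 CPM in control and 4918, 4781 and 5282 CPM in diquat, and the groups then overlapped.

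**Figure D1:**
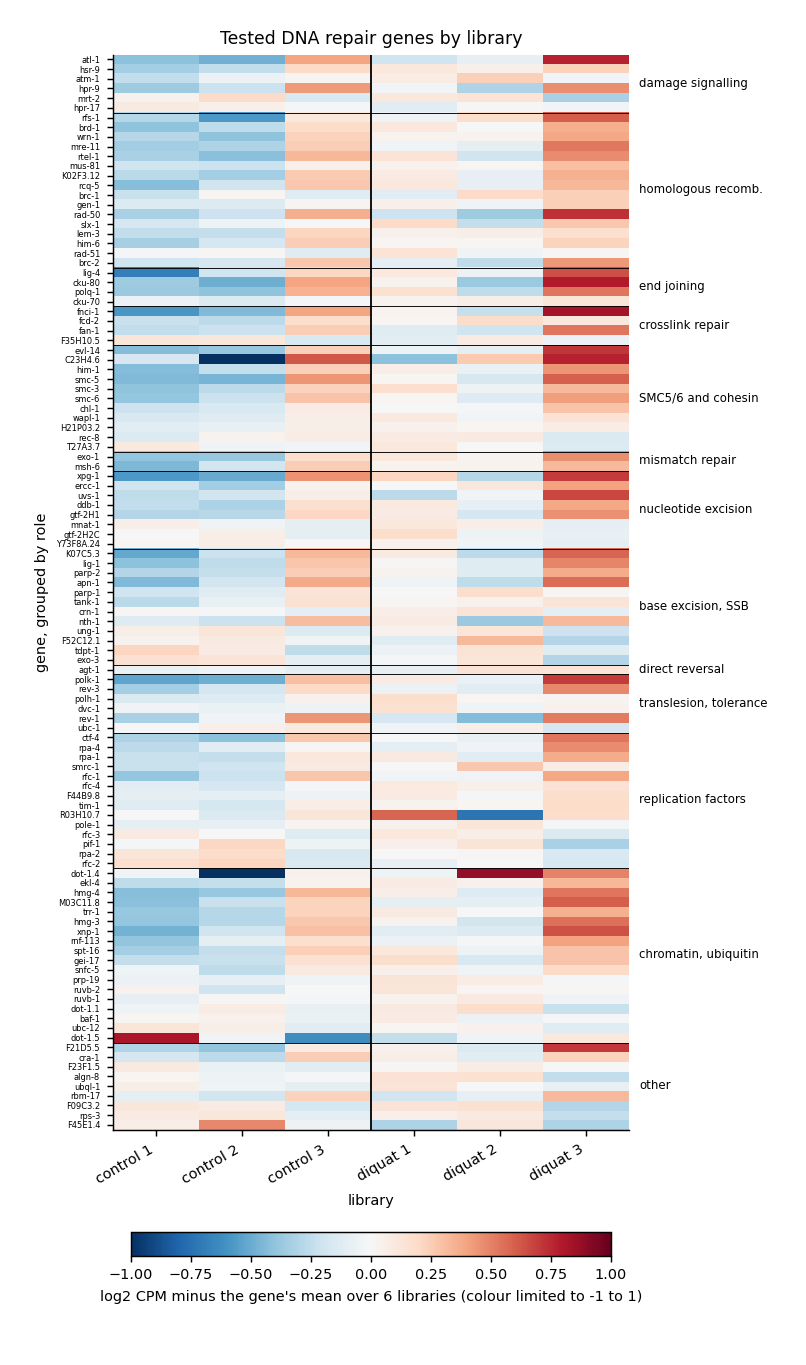
Level of each of the 111 tested DNA repair genes (rows, grouped by role) in the 6 libraries (columns), as log2 CPM minus the gene's mean over the libraries, with the colour limited to the range from -1 to 1. Control 3 and diquat 3 were the highest libraries of their groups in 68 of the 111 genes.

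The counts were different once the replicate numbers were fitted. Libraries with the same number deviated from their group means together, with correlations of 0.16, 0.20 and 0.46 across genes for numbers 1, 2 and 3, so the number was also fitted as a block. Control 1 had 0.21 with diquat 2, above its 0.16 with diquat 1. These correlations therefore do not single out the pairing of numbers 1 and 2. With the block, 25 of the 111 repair genes (22.5%) were higher in diquat, beside 4.51% of all genes tested, and 0 were lower, beside 4.0%. Their blocked log2 fold changes ran from 0.23 to 0.48, that is from 1.17-fold to 1.39-fold, with adjusted p from 0.00190 to 0.0469 by edgeR, where the same genes had 0.782 to 0.829 without the block. All 25 were higher in diquat than in control in each numbered pair, as were 58 of the 111 repair genes (52.3%) and 23.1% of all genes tested. The blocked fit favours genes whose pair differences agree, so this adds no separate support for the 25 calls. The calls depended on which pairs were in the fit: of the 25 genes, 0 were called without pair 1, 7 without pair 2 and 13 without pair 3. Calls over the whole table fell as well. The count of all tested genes called higher was 598 with every pair, and 15, 329 and 436 without pairs 1, 2 and 3. The labels do not say what the number stands for. The counts by repair route given next stand beside the same 4.51% of all genes, and most routes hold too few genes to set a share against it.

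**Figure D2:**
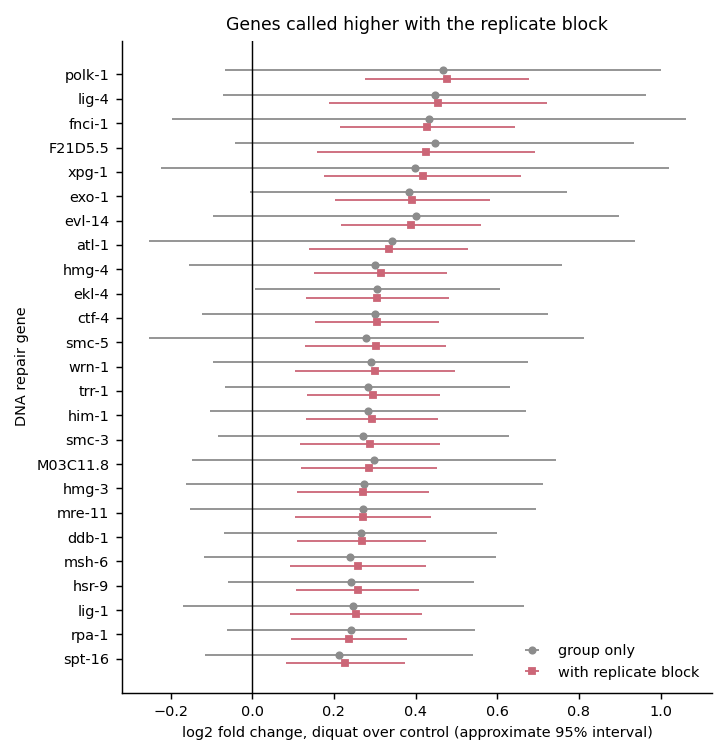
Log2 fold change of diquat over control for the 25 DNA repair genes called higher with the replicate block, without the block (grey circles) and with it (red squares); lines are approximate 95% intervals. Without the block 1 of the 25 intervals, that of ekl-4, lies above 0.

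Among the 25 genes called, the largest blocked change was in polk-1, which encodes the translesion polymerase kappa. The gene lies on chromosome III from 8626258 to 8628590 (WBcel235, minus strand). It was read at 13.7, 14.1 and 24.4 CPM in control 1, 2 and 3 and at 21.01, 18.9 and 32.3 CPM in diquat 1, 2 and 3. Each diquat library was above the control of its number, but control 3 was above diquat 1 and diquat 2, so the groups overlapped. The log2 fold change was 0.48 with the block (SE 0.10, adjusted p = 0.00190 by edgeR) and 0.47 without it (SE 0.25, adjusted p = 0.819). The other translesion polymerases did not pass: polh-1, for polymerase eta, had a log2 fold change of 0.15, and rev-3, the catalytic subunit of polymerase zeta, 0.22. Of the 6 tested genes of lesion bypass, polk-1 was the only one called.

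Of the mismatch repair genes, exo-1 and msh-6 carry the annotation, and both were higher with the block. The core genes msh-2, pms-2 and mlh-1 do not carry it, and none of them was called, with blocked log2 fold changes of 0.23, 0.26 and 0.01 and adjusted p of 0.0766, 0.120 and 0.950 by edgeR. For exo-1, the exonuclease that removes the mismatched strand and also trims break ends, control 1, 2 and 3 gave 17.6, 17.7 and 26.0 CPM and diquat 1, 2 and 3 gave 24.7, 23.4 and 31.7 CPM. Its diquat values all exceeded the first pair of controls, and control 3 was above diquat 1 and 2. The blocked log2 fold change was 0.39 (SE 0.09, adjusted p = 0.00763 by edgeR). For msh-6, a subunit of the mismatch recognition complex, it was 0.26 (adjusted p = 0.0434).

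**Figure D3:**
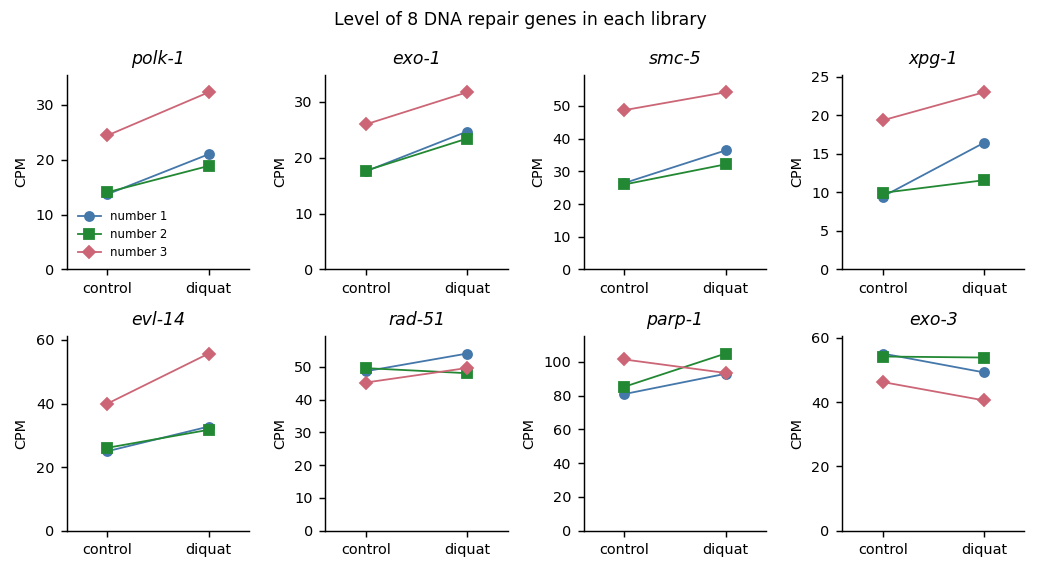
Scaled level (CPM, axis from 0) of 8 DNA repair genes in control and diquat, with libraries of the same number joined by a line. In polk-1, exo-1, smc-5, xpg-1 and evl-14 every line climbs and the number 3 libraries are the highest, while rad-51, parp-1 and exo-3 did not pass the test in either fit.

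Cohesin and the related SMC5/6 complex hold sister chromatids together and assist recombination, and 4 of their 11 genes were higher with the block. The cohesin cofactor gene evl-14, the worm PDS5, was read at 25.01, 26.1 and 39.98 CPM in control 1, 2 and 3 and at 32.8, 31.7 and 55.7 CPM in diquat 1, 2 and 3. Here too control 3 stood above diquat 1 and 2. Its blocked log2 fold change was 0.39 (SE 0.08, adjusted p = 0.00333 by edgeR). The SMC subunits followed at smaller sizes, with blocked log2 fold changes of 0.29 for him-1, 0.29 for smc-3 and 0.30 for smc-5. Of these 4 genes smc-5 had the widest gap between the number 3 control and the others, at 26.4, 26.0 and 48.7 CPM in control 1, 2 and 3 and at 36.4, 32.2 and 54.2 CPM in diquat 1, 2 and 3. Control 3 thus exceeded the first pair of controls by more than any diquat library exceeded its own control.

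In damage signalling, 2 of 6 genes were higher with the block: atl-1, the worm ATR kinase that answers single-stranded DNA, and hsr-9, a relative of mammalian 53BP1. The level of atl-1 was 15.9, 15.1 and 27.9 CPM in control 1, 2 and 3 and 18.5, 20.0 and 36.2 CPM in diquat 1, 2 and 3, with a blocked log2 fold change of 0.33 (SE 0.10, adjusted p = 0.0258 by edgeR). Its estimate in the fit without a block went from 0.34 to -0.05 when diquat 3 was left out, and to 0.71 when control 3 was. With the block and both number 3 libraries left out it was 0.31. The related kinase atm-1, which answers double-strand breaks, had a log2 fold change of 0.19 and an adjusted p of 0.166 with the block by edgeR.

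Of the 4 end joining genes, lig-4, the ligase that seals broken ends, was called with the block. It gave 6.58, 9.26 and 12.3 CPM in control 1, 2 and 3 and 11.4, 10.2 and 16.7 CPM in diquat 1, 2 and 3. The blocked log2 fold change was 0.46 (SE 0.13, adjusted p = 0.0270 by edgeR), and the pair differences were 0.78, 0.14 and 0.44. The gene for polymerase theta, polq-1, had a blocked log2 fold change of 0.29 and the Ku subunit gene cku-80 one of 0.32, with adjusted p of 0.0619 and 0.0531. Without diquat 3 the unblocked estimate for cku-80 went from 0.33 to -0.08, and without control 3 it went to 0.69. With the block and both number 3 libraries left out, cku-80 had 0.26. Its partner cku-70 was at 27.9, 26.4 and 28.7 CPM in control and at 29.8, 30.3 and 31.7 CPM in diquat, with no overlap between the groups. That difference was a log2 fold change of 0.14 and did not pass either fit.

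All 16 homologous recombination genes that carry the annotation had an estimate above 0, with a median of 0.22, and 2 were called with the block. These were mre-11, the nuclease of the complex that first binds a break, with a blocked log2 fold change of 0.27, and wrn-1, the worm Werner helicase, with 0.30. The strand exchange recombinase gene rad-51 was at 48.7, 49.6 and 45.2 CPM in control and at 54.1, 48.07 and 49.7 CPM in diquat. Its blocked log2 fold change was 0.08, with an approximate 95% interval from -0.08 to 0.24. The BRCA1 and BRCA2 relatives brc-1 and brc-2 had blocked log2 fold changes of 0.21 and 0.07 and did not pass. Homologous recombination genes without the annotation also had estimates mostly above 0, the exceptions being eme-1 and Y116A8C.13, each at -0.06. None of the genes without the annotation in this route was called with the block.

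Among the 4 genes of interstrand crosslink repair, fnci-1, the worm FANCI, was higher with the block. It was at 11.4, 12.5 and 22.5 CPM in control 1, 2 and 3 and at 17.5, 14.5 and 30.5 CPM in diquat 1, 2 and 3, with control 3 above diquat 1 and 2. The blocked log2 fold change was 0.43 (SE 0.11, adjusted p = 0.00982 by edgeR). Its partner in the same complex, fcd-2, had 0.20 with an adjusted p of 0.192.

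Nucleotide excision repair had 2 of 8 genes called with the block. The endonuclease gene xpg-1, which cuts on one side of the lesion, was read at 9.46, 9.94 and 19.4 CPM in control 1, 2 and 3 and at 16.4, 11.6 and 23.01 CPM in diquat 1, 2 and 3. Its blocked log2 fold change was 0.42 (SE 0.12, adjusted p = 0.0246 by edgeR), and the pair differences of 0.79, 0.22 and 0.25 put most of it in pair 1. The damage sensor subunit gene ddb-1 had 0.27. The partner of the other incision nuclease, ercc-1, had 0.34 with an adjusted p of 0.0582.

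Base excision and single-strand break repair, the routes for oxidised bases, had 1 of 12 genes called with the block (8.33%, beside 4.51% of all genes tested), which for so few genes is near the background. This was lig-1, the ligase that also joins replicated fragments, with a blocked log2 fold change of 0.25 (adjusted p = 0.0420 by edgeR). The glycosylase and endonuclease genes at the head of the pathway did not pass in either fit. For the oxidised-base glycosylase gene nth-1 the values were 4.71, 4.42 and 6.39 CPM in control and 5.45, 3.97 and 6.48 CPM in diquat. The uracil glycosylase gene ung-1 had a log2 fold change of -0.03, and the abasic-site endonuclease genes exo-3 and apn-1 had -0.12 and 0.17. For the break sensor gene parp-1 it was 0.12. In the blocked fit the approximate 95% intervals were -0.32 to 0.38 for nth-1, -0.19 to 0.13 for ung-1, -0.28 to 0.04 for exo-3 and -0.07 to 0.42 for apn-1. The single gene of direct reversal, agt-1, an alkyltransferase gene, had an estimate of 0.14 and did not pass.

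Factors that act on replication and chromatin made up the rest. Of 14 tested replication genes, ctf-4, which links helicase and polymerase, and rpa-1, the large RPA subunit, were higher with the block, at blocked log2 fold changes of 0.31 and 0.24. The RPA subunit rpa-2 had a blocked log2 fold change of -0.10 and the clamp loader subunit rfc-2 one of -0.16, and neither passed. Of 18 tested chromatin and ubiquitin genes 6 were higher: hmg-3, hmg-4 and spt-16, the subunits of the histone chaperone FACT, the TRRAP relative trr-1, ekl-4 and M03C11.8. The FACT genes had blocked log2 fold changes of 0.27, 0.31 and 0.23. Since hmg-3 and hmg-4 are close copies, reads may have been shared between them and their separate values are uncertain. Among the 9 tested genes placed in no route, F21D5.5 was called higher, with a blocked log2 fold change of 0.42. The lowest estimate of all was that of F45E1.4, at 12.99, 17.4 and 12 CPM in control and 9.98, 13.5 and 10.01 CPM in diquat, with a blocked adjusted p of 0.0652 by edgeR.

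Read without pairs, few genes separated the groups. In 5 of the 111 repair genes (4.50%) all 3 diquat libraries lay above all 3 controls, beside 4.07% of all genes tested, which is near the background. In 0 genes they all lay below, beside 6.68%. The 5 were ekl-4, prp-19, cku-70, F44B9.8 and rfc-4, and they were named after their values were seen. Only ekl-4 was also among the 25 blocked calls. It was at 24.8, 24.99 and 30.2 CPM in control and at 31.3, 30.4 and 37.2 CPM in diquat, with a blocked log2 fold change of 0.31 (SE 0.09, adjusted p = 0.0234 by edgeR).

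The number 3 libraries stood apart from the other libraries of their groups in these genes. Control 3 was above the mean of control 1 and 2 by a median log2 difference of 0.31 over the 111 genes, beside -0.04 for all genes tested, and diquat 3 was above the mean of diquat 1 and 2 by 0.25, beside 0.01. The medians for diquat minus control were 0.22, 0.13 and 0.12 in pairs 1, 2 and 3, beside 0.00, 0.01 and 0.03. Both number 3 libraries were the highest of their groups in 68 of the 111 genes (61.3%), beside 27.2% of all genes, and in all 25 of the blocked calls. For 23 of the 25 the gap between control 3 and the other controls was larger than the diquat log2 fold change. That held for 70 of the 111 repair genes (63.1%) and for 47.8% of all genes tested. The 25 were called only with the block, which takes out differences shared by libraries of the same number. Both patterns are therefore favoured among the 25 and are no separate finding about them. The 25 genes summed to 881, 926 and 1339 CPM in control 1, 2 and 3 and to 1185, 1088 and 1549 CPM in diquat 1, 2 and 3, so that control 3 was above diquat 1 and 2.

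**Figure D4:**
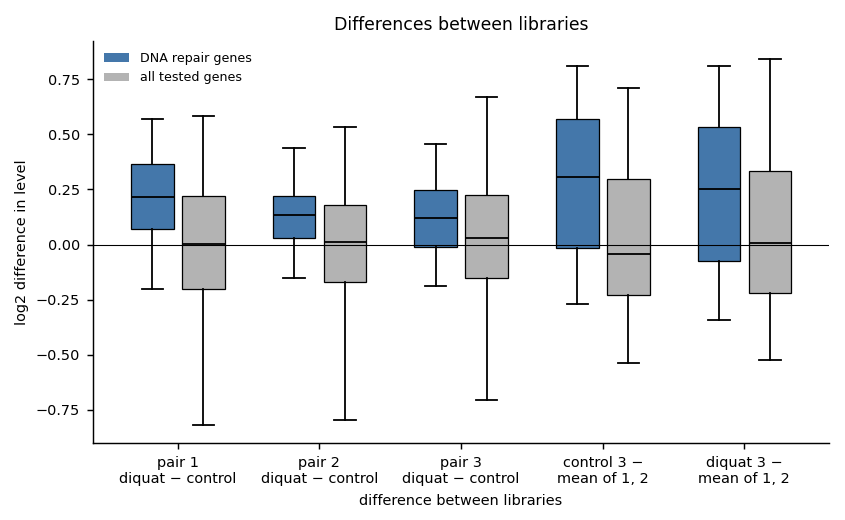
Log2 differences in level between libraries for the 111 DNA repair genes (blue) and all 13252 tested genes (grey), as diquat minus control in each numbered pair and as each number 3 library minus the mean of the other libraries of its group. Boxes span the quartiles with the median as a line, and whiskers run from the 5th to the 95th percentile; the repair genes' medians are 0.22, 0.13, 0.12, 0.31 and 0.25.

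Marker sets of cell types differed in how they moved beside these values. The 11 germline markers summed to 2638, 2685 and 2414 CPM in control 1, 2 and 3 and to 2721, 2901 and 2148 CPM in diquat 1, 2 and 3, so that the number 3 libraries were the lowest of each group. The 10 oocyte and eggshell markers were lowest in the same libraries, at 9483 CPM in control 3 and 8582 CPM in diquat 3. The median log2 fold change of the germline markers was 0.01, and 0 of 11 were called with or without the block. The 5 neuron markers were higher in the number 3 libraries by a median log2 difference of 0.52 in control and 0.66 in diquat, although their sum was lowest there, at 261 CPM in control 3 and 238 CPM in diquat 3. Their median log2 fold change was 0.13, above 0 in 4 of 5, and 0 were called in either fit. With the block 4 of the 6 yolk genes were higher, at a median log2 fold change of 0.27 for the set, and 3 of 5 muscle and 2 of 5 intestine markers were lower. The part of cell composition in the repair genes' values was not tested.

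Transcript length moved with the repair genes' values. The summed exon length of the tested genes had a median of 2063 nucleotides, against 1416 for all tested genes, and it was 3351 for the 25 blocked calls and 1747.5 for the other repair genes. Across genes, which are not independent replicates, Spearman's rho between exon length and log2 fold change was 0.45 over the 111 repair genes and 0.32 over all tested genes, with the same 6 libraries behind every point. For exon lengths from 1000 to under 2000 nucleotides, 2 of 49 repair genes (4.08%) were called with the block, beside 3.33% of all genes of that length. From 2000 to under 3000 nucleotides it was 9 of 22 (40.9%), beside 8.84%, and from 3000 nucleotides it was 14 of 34 (41.2%), beside 13.5%. The control 3 difference had the same order: its median over repair genes was 0.07, 0.49 and 0.56 in these ranges, beside -0.05, 0.13 and 0.31 for all genes.

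**Figure D5:**
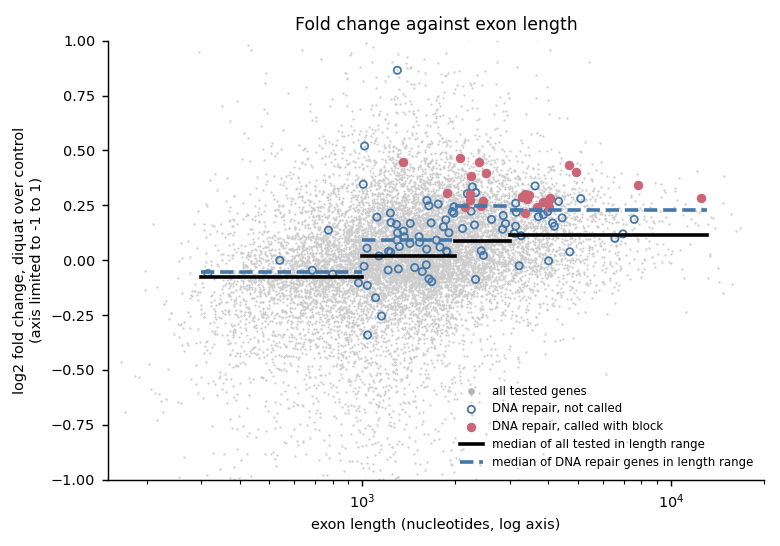
Log2 fold change of diquat over control without the block (vertical axis, limited to -1 to 1) against summed exon length (log axis) for all tested genes (grey) and the DNA repair genes (blue open circles, or red where called with the block). Horizontal lines are medians in 4 length ranges: over repair genes they are -0.05, 0.09, 0.24 and 0.23, and over all genes -0.08, 0.02, 0.09 and 0.11.

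With each library's length trend taken out of the blocked fit, 4 repair genes (3.60%) were higher, beside 1.37% of all genes. In the same fit 2 (1.80%) were lower, beside 7.50%. The 4 were polk-1, exo-1, F21D5.5 and ercc-1, of which 3 were among the 25 blocked calls and ercc-1 was not. The lower genes were F45E1.4 and the helicase gene pif-1, the last named after its values were seen. That correction left the median of all genes at -0.03. The TMM scaling was therefore computed again on the corrected counts, a step chosen after those counts of calls had been seen. With it, 12 repair genes were higher, beside 3.80% of all genes, and 0 were lower, beside 5.93%. Of the 12, 10 were among the 25 blocked calls (polk-1, exo-1, evl-14, fnci-1, lig-4, xpg-1, hmg-4, ekl-4, ctf-4 and F21D5.5), and the others were ercc-1 and rfc-4. The calls made in both versions were those of polk-1, exo-1, F21D5.5 and ercc-1. The medians over the repair genes were 0.06 in the first version and 0.11 in the second, and all 25 blocked calls kept an estimate above 0 in both.

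Of the 121 repair genes matched to the WBcel235 annotation, 33 had exons that overlapped those of another coding gene. The overlap was on the opposite strand in 25 genes and on the same one in 8. The sources do not give whether the authors' counting used strand, so reads of such partners may not have been kept apart. Of the 25 blocked calls this touches 5, which are polk-1, exo-1, smc-5, ekl-4 and hmg-3. By chromosome, the tested repair genes lay mostly on III, with 35 genes (31.5%, beside 15.2% of all tested genes), and I, with 29 (26.1%, beside 16.2%), while X held 4 (3.60%, beside 14.7%). The blocked calls were 7 on III, 8 on I and 0 on X.

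Textbook repair genes that do not carry the annotation in the deposited table were read from the same fits. Of 52 such genes 51 were tested, with log2 fold changes from -0.15 to 1.35 and a median of 0.16, and 0 were called without the block. With it 5 (9.8%) were higher, beside 4.51% of all genes tested and 22.5% of the annotated repair genes, a difference that was not tested. These were csa-1, which couples excision repair to transcription, fncm-1, cul-4, mys-4 and ctf-18. With the length trend also removed, in its first version, 4 of the 51 were higher: csa-1, fncm-1, cul-4 and mys-4. In that fit 4 of the 111 annotated genes (3.60%) and 1.37% of all genes tested were higher. The largest fold change was that of csa-1, on low counts of 12, 8 and 19 in control 1, 2 and 3 and 27, 34 and 39 in diquat 1, 2 and 3. The groups did not overlap, and the log2 fold change was 1.35 without the block (adjusted p = 0.204 by edgeR) and 1.36 with it (adjusted p = 0.0260).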

How the data were processed

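RNA from whole worms was sequenced in 3 control and 3 diquat libraries. The authors deposited estimated counts, FPKM values, log2 fold changes, p-values and FDR per gene in one table. RSEM, StringTie 1.3.1, HISAT2, fastp 0.18.0 and the build WBcel235 are listed, per the submitters' processing notes, with no order of use, and the deposited estimated counts are whole numbers. From the authors' estimated counts, edgeR 4.0.16 (R 4.3.3) fitted all genes with TMM scaling, its default filter on low counts and the robust quasi-likelihood F-test, with a Benjamini-Hochberg threshold of 0.05. Levels are TMM-scaled CPM, and log2 CPM uses a prior count of 2. FPKM as deposited by the authors was used for levels between genes, and the authors' log2 fold changes and p-values were not used beyond the FDR quoted. Standard errors and 95% intervals are approximate, derived from the F statistic. Alternatives were DESeq2 1.42.0, limma-voom (limma 3.58.1), DESeq2 size factors, no filter, a replicate block, removal of each library's trend with exon length (smoothing spline with 5 degrees of freedom, as an offset) and leaving libraries out. The fits were tested on simulated data that held no replicate effect and no length trend, with larger fold changes than those of the repair genes called here. The simulation therefore cannot show how the block or the length correction behaves where such effects are present.

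The paired fit rests on the labels' shared replicate numbers and on the correlations of same-numbered libraries' deviations, 0.16, 0.20 and 0.46, each over 0.1; control 1 also had 0.21 with diquat 2. Exon lengths, positions and overlaps came from Ensembl release 115 of WBcel235, which matched 121 of the 126 genes. Replicates of a group differed by far more than counting noise.

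The members and gene lists were chosen with earlier results of these data known, and roles of some members were assigned after the table's descriptions had been read. Genes named were all those called with or without the block, the 5 highest and 5 lowest log2 fold changes among genes with a mean of at least 50 counts, the gene of highest FPKM in each role, and a set of well-known repair genes. No sequence is shown.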

Additional observations from a re-analysis of the deposited data

How the results depend on the processing

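The count of repair genes called higher moved from 0 to 25 with the replicate block, to 4 with the length trend removed as well, and to 12 when the TMM scaling was then computed again, a setting chosen after seeing the data. The count called lower moved from 0 to 2 with the block after removal of the length trend. With the block and one replicate number left out, the count called higher was 0, 9 and 16 without numbers 1, 2 and 3. Over all genes tested it was 15, 329 and 436 in the same fits, beside 598 with every number in. Under every alternative run without the block, single libraries left out included, both counts were 0. The median log2 fold change of the repair genes ran from 0.07 without diquat 3 to 0.30 without control 3 when single libraries were left out, and it was 0.07 with the length trend removed and 0.06 with the replicate block as well.

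Some single genes changed sign, and none of these had passed the test without the block. With DESeq2 size factors, no filter, and DESeq2, the log2 fold change of baf-1 was 0.0029, 0.0022 and 0.0079. With the length trend removed, baf-1, parp-1, nth-1, gtf-2H2C and F35H10.5 had 0.0860, -0.0020, -0.0649, -0.0024 and 0.17, and with the replicate block as well 0.0865, -0.0179, -0.0664, -0.0037 and 0.18. With TMM computed again, baf-1, nth-1, ung-1 and F35H10.5 had 0.13, -0.0159, 0.0065 and 0.22, and with the replicate block as well 0.13, -0.0208, 0.0037 and 0.22. With single libraries left out, the values ran from -0.0326 to 0.0296 for baf-1, -0.15 to 0.24 for nth-1, -0.18 to 0.27 for brc-2, -0.0958 to 0.0506 for ung-1, -0.0379 to 0.0742 for gtf-2H2C, -0.12 to 0.47 for apn-1, -0.0526 to 0.71 for atl-1, -0.0779 to 0.69 for cku-80, -0.12 to 0.0190 for rps-3 and -0.0107 to 0.41 for rev-3. With the replicate block and one number left out, they ran from -0.0632 to 0.12 for nth-1, -0.0444 to 0.11 for gtf-2H2C, -0.13 to 0.0302 for F35H10.5 and -0.0350 to 0.0607 for baf-1. The cause was not tested.

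With 3 libraries a group, a single gene's log2 fold change was resolved to a median half-width of 0.34, or 0.17 with the block.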

Other observations

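Apoptosis genes that act downstream of DNA damage in the germline gave the following values. The BH3-only gene egl-1 had counts of 66, 59 and 37 in control 1, 2 and 3 and of 30, 54 and 35 in diquat 1, 2 and 3, and ced-13 had 1 count in all 6 libraries together. The p53 relative cep-1 had counts of 283, 297 and 536 in control and of 393, 301 and 729 in diquat, with the number 3 libraries again the highest of each group. Of the 5 tested genes, which were egl-1, ced-3, ced-4, ced-9 and cep-1, 0 were called with or without the block by edgeR.

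Of the 17 genes that carry the annotation but were left out, 8 were tested and 0 were called in either fit. Their median log2 fold change was 0.02. The checkpoint kinase gene chk-2 had counts of 319, 322 and 320 in control and of 351, 321 and 281 in diquat.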
